A study of Saccharomyces cerevisiae with 59 samples.

Results

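PGK1 (YCR012W), the single gene of Saccharomyces cerevisiae that encodes 3-phosphoglycerate kinase, was followed through all 59 bulk RNA-seq libraries of the series. It is 1 of the 6420 genes counted in each library, and it was selected on these same measured levels, because they were far higher in 5 libraries than in the others, so its levels and ratios below are a description and carry no test. All libraries held total RNA of the strain s288c under amino acid starvation (AAS). The cells descended from 1 clone, grew in rich medium to mid-logarithmic phase, lost their walls to zymolyase and were then held as spheroplasts in a sorbitol and glucose medium without amino acids. Purified RNA was diluted to give 10 libraries each at 5, 10 and 20 pg, 7 at 100 pg, 8 at 1 ng and 9 at 10 ng, and each amount was carried through the study's single-cell protocol with ERCC spike-in RNA added in proportion to the input. The labels of 5 further libraries, H6P11, H6P12, H6P14, H6P15 and H6P16, state no input, and these 5 are given 1 by 1 or by their range. No unstarved bulk RNA was analysed here, so the values show how PGK1 was read from starved cells and not how starvation changed it.

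3-phosphoglycerate kinase moves a phosphate from 1,3-bisphosphoglycerate to ADP and so makes the earliest ATP gained in glycolysis. The step lies between glyceraldehyde-3-phosphate dehydrogenase (TDH1, TDH2 and TDH3) and phosphoglycerate mutase (GPM1), and it runs backwards in gluconeogenesis. In yeast growing on glucose the glycolytic genes are known as some of the most strongly transcribed of all, and their promoters are classic targets of the factors Rap1 and Gcr1. The PGK1 promoter is widely used to drive other genes in yeast for the same reason. Unlike the dehydrogenase and the enolase, which yeast makes from several near-identical genes, the kinase has no second copy.

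PGK1 lies at chrIII:137746-138996 on the plus strand of the R64 genome, a coding sequence of 1251 bases. Its neighbours ADP1 and POL4 lie on the minus strand, 872 bases before its start codon and 188 bases after its stop codon, and no gene of the RefSeq annotation overlaps it. A dubious reading frame on the opposite strand of PGK1, YCR013C, is not among the genes counted. None of the 1202 stretches of 50 bases in its coding sequence occurred a second time in the genome, so reads of PGK1 can be placed uniquely. The same count was 31.3% of stretches for TDH2, 24.4% for TDH3, 23.6% each for ENO1 and ENO2, 15.7% for TDH1 and 140 of 998 stretches for ADH1. The authors counted only uniquely mapped reads, so the levels of those 6 genes may leave out reads that lie wholly in shared sequence. Reads were 100 bases long, longer than the stretches searched, so these shares are not shares of reads lost. Reads that fell in more than 1 gene were counted in none, and they came to 0.82% to 4.0% of the gene total in libraries of a stated input and 0.617% to 1.19% in the others. Their part in the PGK1 values was not tested.

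The stretch upstream of PGK1 that holds its Rap1 and Gcr1 motifs is shown because these are the factors that the list of regulators below is built on. The Rap1 motif was searched as ACCCANNCA and the Gcr1 motif as CTTCC, on both strands, within 600 bases before the start codon. Capitals mark the matches, which do not overlap each other in these stretches, and each sequence reads 5′ to 3′ on the strand of its gene. ENO1 and GPM1 are shown beside PGK1 as pathway genes in which both motifs start within 50 bases of each other. Genome sequence and gene models are from RefSeq, build R64.
PGK1 (chrIII:137226-137465, plus strand, 520 to 281 bases before the start codon): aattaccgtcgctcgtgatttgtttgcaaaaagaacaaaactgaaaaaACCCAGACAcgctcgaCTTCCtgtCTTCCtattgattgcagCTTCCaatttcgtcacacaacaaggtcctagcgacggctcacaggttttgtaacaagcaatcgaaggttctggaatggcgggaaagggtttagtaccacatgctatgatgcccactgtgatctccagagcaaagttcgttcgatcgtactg
ENO1 (chrVII:1000430-1000509, plus strand): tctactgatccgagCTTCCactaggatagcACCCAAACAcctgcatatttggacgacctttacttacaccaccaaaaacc
GPM1 (chrXI:164730-164809, minus strand): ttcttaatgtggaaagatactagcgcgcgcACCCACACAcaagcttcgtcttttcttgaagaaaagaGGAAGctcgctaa

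The Rap1 match of PGK1 begins 472 bases before the start codon, and 3 Gcr1 matches follow it at 456, 448 and 431 bases. PGK1 has 2 more Gcr1 matches on the other strand, at 588 and 38 bases. Of 5977 upstream windows of the same length, 72.9% held CTTCC, 6.99% held ACCCANNCA and 1.25% held both within 50 bases. Among the other 20 genes of glycolysis and ethanol formation, 16 held CTTCC, 6 held ACCCANNCA, and 3 (PGI1, ENO1 and GPM1) held both within 50 bases. A match is a run of letters and not a measured binding site.

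Before the levels, the 5 libraries without a stated input stood apart in several ways. Their gene totals ran from 6407797 to 14337575 counts, against 290434 to 2452562 in the 54 grouped libraries. Their spike-in counts ran from 552 to 881759, with H6P12 alone above 5896, against 639599 to 4583258 in the grouped libraries. The study's own summary of libraries places them in a batch apart from the rest, so batch and these libraries cannot be told apart, and it lists inputs for them that the labels do not give and that are not used here. The strain is of the alpha mating type, and the 3 alpha-cell markers summed to 359 to 7124 counts per 1000000 gene counts (CPM) in the grouped libraries and to 381 to 901 CPM in the other 5. The 5 a-cell markers had 0 counts in 33 of the 54 grouped libraries and summed to at most 135 CPM there, against 39.9 to 173 CPM without a stated input, where BAR1 reached 172 CPM and MFA1 at most 0.611 CPM. The part of these differences in the PGK1 values was not tested.

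CPM is used for all levels, with spike-ins and summary lines left out. In bulk RNA, fewer cells with a transcript and less of it per cell cannot be told apart. At 10 ng, the amount with the most RNA behind each library, PGK1 was close to the floor of detection. It had 2 to 13 counts in 8 of the 9 libraries, which is 3.32 to 11.6 CPM, and the median over all 9 was 7.58 CPM. The exact 95% binomial interval of replicate 7, with 8 counts and 6.70 CPM, ran from 2.89 to 13.2 CPM. That of replicate 1, with 10 counts and 11.6 CPM, ran from 5.58 to 21.4 CPM. These intervals treat each read as a separate molecule, which copies made by PCR are not. The part of counting error in the spread among these 8 was not tested. Replicate 5 stood apart with 84 counts and 53.3 CPM, an interval of 42.5 to 66.0 CPM. With it the group mean was 12.5 ± 15.6 CPM (SD, n = 9), and without it 7.36 ± 3.14 CPM (n = 8).

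At 1 ng the lowest, median and highest of the 8 libraries were 32.5, 78.2 and 157 CPM, and the mean was 89.5 ± 48.6 CPM (SD). All 8 lay above the 8 low libraries of 10 ng, and 6 of them lay above replicate 5 as well. At 100 pg the 7 libraries ran from 36.7 through a median of 176 to 285 CPM, with a mean of 153 ± 102 CPM. The ranges overlapped, and from 100 pg to 1 ng the mean fell by 63.5 CPM. This is smaller than the SD at 100 pg and larger than that at 1 ng.

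At 20 pg the lowest, median and highest of 10 libraries were 31.9, 189 and 464 CPM (mean 209 ± 163). At 10 pg they were 43.7, 116 and 795 CPM (mean 205 ± 228), with replicate 1 alone above 332 CPM. At 5 pg they were 3.15, 111 and 628 CPM (mean 180 ± 212). The 5 pg libraries spanned the widest range of any amount as a ratio, from replicate 5 with 4 counts and replicate 3 with 11 counts to replicate 1 with 528 and replicate 10 with 1160. The 3 smallest amounts overlapped almost wholly, and their means differed by less than 1 SD of any of them.

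By median, the order from high to low was 20 pg, 100 pg, 10 pg, 5 pg, 1 ng and 10 ng. No step between neighbouring input amounts gave ranges that were fully apart. The step from 1 ng to 10 ng came nearest, with 8 of 9 libraries at 10 ng below the lowest of 1 ng. From 100 pg to 1 ng the change of the mean exceeded the SD at 1 ng but not that at 100 pg. The steps between smaller amounts exceeded the SD of neither amount. As a ratio of means, PGK1 was 14.4-fold higher at 5 pg than at 10 ng and 7.18-fold higher at 1 ng than at 10 ng, and these became 24.5-fold and 12.2-fold without replicate 5 of 10 ng. Libraries numbered 1 to 4 and those numbered above 4 in the labels were also taken apart as possible batches, and the log2 ratio of 1 ng to 10 ng was 2.92 in the former and 2.84 in the latter. The ratio of 100 pg to 1 ng was 0.77 on the log2 scale, less than the pooled SD of 1.04 of the log2 levels in both groups. It was above that SD by group medians (1.17), with TMM-scaled CPM (1.08) and with DESeq2 size factors (1.19). The remaining alternatives gave 0.44 to 0.92, below that SD.

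**Figure D1:**
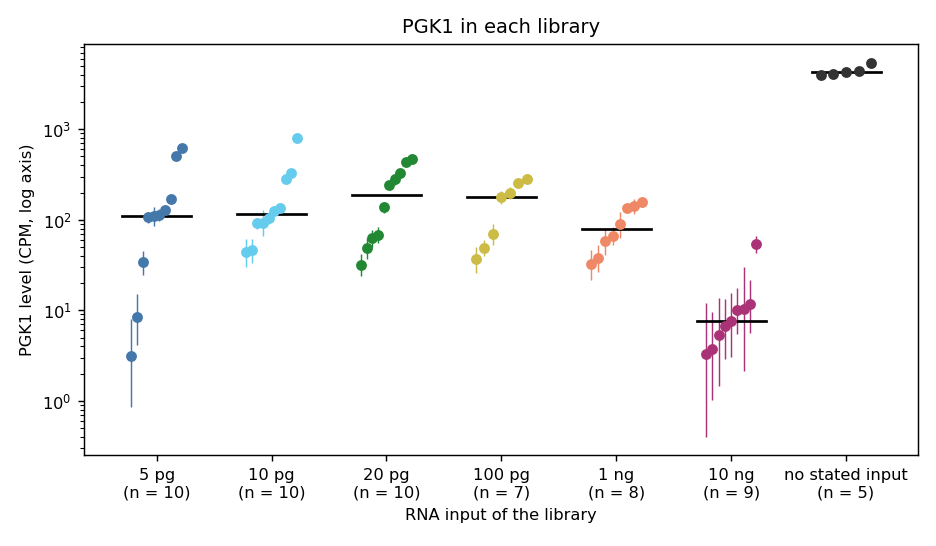
PGK1 level in CPM (log axis) in each of 59 libraries by RNA input, with exact 95% binomial intervals that cover counting error only and a bar at each median. The 10 ng libraries sit between 3.32 and 11.6 CPM apart from replicate 5 at 53.3, the smaller amounts sit between 31.9 and 795 apart from 2 libraries of 5 pg below 10, and the 5 libraries with no stated input sit between 3952 and 5379.

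In the libraries without a stated input PGK1 was far higher. H6P11 had 5379 CPM from 34467 counts, H6P12 had 4367, H6P14 had 4282, H6P15 had 4054 and H6P16 had 3952 CPM. These 5 values lay close together, and the lowest of them was 4.97-fold above the highest grouped library. The ratio of their median to the median of the 54 grouped libraries was 46.4, and it ranged from 22.7 against 20 pg to 565 against 10 ng. H6P12, the only library of the 5 with many spike-in counts, had a PGK1 level like that of the other 4.

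The rank of PGK1 among all genes shows the same contrast without any scaling. By CPM it was 9th in H6P11, 13th in H6P12, 15th in H6P14, 16th in H6P15 and 22nd in H6P16. Its best rank in any grouped library was 214, in 5 pg replicate 1, its median rank over the 54 was 921, and its median rank at 10 ng was 2252. All 5 libraries without a stated input lay above all 54 grouped ones for 141 of 4622 genes (3.05%), of which PGK1 is 1. They lay below all 54 for 12 genes (0.26%).

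The ratio of the 2 medians, which is the measure PGK1 was picked on, was 5.52 on a log2(CPM + 1) scale and ranked 13th of the 1240 genes with a mean of at least 100 CPM over all libraries, a set that some genes enter only through the 5 libraries where they are high. The median gene had 0.88. The 5 genes ranked just above it, ADE2, SYG1, URA2, BPT1 and MMP1, had 6.12 to 5.71, and the 5 just below, MUP1, CSR2, GPB1, QDR3 and POP1, had 5.49 to 5.46. ADE2 acts in purine synthesis, URA2 opens pyrimidine synthesis, and MMP1 and MUP1 take up S-methylmethionine and methionine. PGK1 had the highest level of these 11 in the libraries without a stated input, where their medians ran from 52.8 to 4282 CPM. Of the 14 genes at or above its level in those libraries, PGK1 had the largest ratio. That set is cut at the level of PGK1 itself in the libraries that form the ratio, so this place is no separate finding. Next was MET10, a sulfite reductase subunit named here after its values were seen, at 4.81.

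The other genes of glycolysis and ethanol formation put these levels in proportion. Per kilobase of coding length, the 5 most abundant genes of all at 10 ng were the pathway genes TDH3, GPM1, TDH2, ENO2 and ENO1, whose means ran from 80657 ± 14957 (SD, n = 9) to 39128 ± 6038 CPM per kb. PGK1 had a median of 6.06 CPM per kb there and was 19th of the 21 pathway genes in every 10 ng library, above only PYK2, a minor pyruvate kinase, and GLK1, a glucokinase. Over all 54 grouped libraries it ranked between 15th and 20th of 21. In the libraries without a stated input it ranked between 4th and 10th, with a median of 3423 CPM per kb, close to TDH2 at 3646.

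The enzymes on both sides of PGK1 went the other way. TDH3 was at 29685 to 143875 CPM in the grouped libraries and at 8225 to 16473 CPM in the other 5, with no overlap. For every 1000 counts of TDH3, the median grouped library held 1.26 counts of PGK1 and the median 10 ng library 0.0845, against 240 to 654 in the 5 libraries without a stated input. For every 1000 counts of GPM1 these figures were 3.56, 0.153 and 380 to 1296. Each ratio is taken within a library and does not depend on how libraries are scaled. It shows that the genes changed unequally and not which of them moved.

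Of the 20 other pathway genes, 1 lay above all grouped libraries in every library without a stated input, against the background of 3.05%. This was GLK1, which had a median of 0.758 CPM, 0 counts in 22 libraries and at most 62.1 CPM among the grouped libraries, and 649 to 1645 CPM in the others. The 6 genes TDH1, TDH2, TDH3, ENO1, ENO2 and PDC1, the main pyruvate decarboxylase gene, lay below all grouped libraries, against the background of 0.26%, and 5 of these 6 share stretches of sequence with a second gene beyond 15% of their length. The medians of 8 of the 20 genes were higher without a stated input and those of 12 were lower. TPI1, triose phosphate isomerase, was 4.54-fold higher by median (3210 against 707 CPM) with overlapping ranges. PFK2, the beta subunit of phosphofructokinase, had like medians of 916 and 891 CPM.

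**Figure D2:**
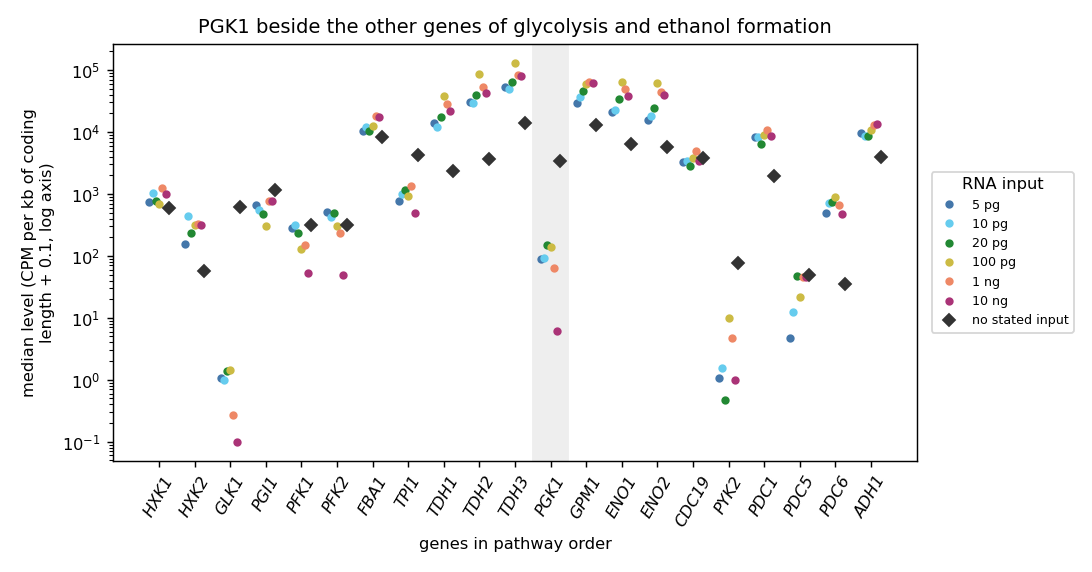
Median level per kilobase of coding length (CPM per kb + 0.1, log axis) of 21 genes of glycolysis and ethanol formation, in pathway order, for each RNA input and for the 5 libraries with no stated input (diamonds). PGK1 (shaded) falls from about 100 at the small amounts to 6.06 at 10 ng and stands at 3423 without a stated input, while TDH3, GPM1, ENO1 and ENO2 stand above 10000 at every stated amount.

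The pathway genes other than PGK1 were tested between amounts on the whole table with edgeR's quasi-likelihood test after TMM scaling, with p-values adjusted by Benjamini-Hochberg over all genes tested. From 10 ng to 1 ng, 4 of the 19 genes tested rose and none fell, where 36.7% of all 3927 genes tested were called, 20.8% as higher at 1 ng and 15.9% as lower. The 4 that rose were both phosphofructokinase subunits, the triose phosphate isomerase and the minor pyruvate kinase. PFK2 had 727 ± 295 CPM at 1 ng (SD, n = 8) and 171 ± 97.6 CPM at 10 ng (n = 9), a log2 fold change of 1.90 ± 0.21 (SE, adjusted p = 1.6e-05 with edgeR). PFK1 rose by 1.40 ± 0.20 on the log2 scale (adjusted p = 0.000114), from 184 ± 113 to 564 ± 246 CPM. TPI1 rose by 1.17 ± 0.29 (adjusted p = 0.00509), from 444 ± 245 to 1031 ± 328 CPM. PYK2 was called with a log2 fold change of 2.29 ± 0.61, but from only 1.19 ± 1.22 to 8.56 ± 6.71 CPM. Its counts at 10 ng were too few for a fall to be called, so its direction was fixed in advance. The count of 4 includes it.

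None of the abundant genes of the pathway passed in that step. TDH3, GPM1, ENO1, ENO2 and FBA1, the aldolase, had log2 fold changes between −0.28 and 0.07. The median over the 19 genes was 0.03 and that over all genes 0.23. With total counts in place of TMM the median over all genes was 0.51, and the same 4 genes passed, with CDC19, ENO1 and TDH2 added. Of all genes called, 56.6% were higher at 1 ng with TMM and 68.8% with total counts. Within libraries numbered 1 to 4 the test called 3 pathway genes, with 451 higher and 420 lower of 3347 genes tested, and within those numbered above 4 it called 1, with 57 higher and 26 lower of 4598. The fitted log2 difference of PGK1 in this step was 2.59, larger than that of 97.7% of the genes tested, and PGK1 was chosen for its levels.

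From 10 ng to 5 pg, 11 of the 20 genes rose and none fell, where 30.6% of all 3492 genes tested were called, 23% as higher at 5 pg and 7.62% as lower. DESeq2, and its size factors in edgeR, also gave 11 higher and 0 lower. With TMM the median log2 fold change of all genes was 1.64 and that of the pathway 1.76. With total counts the medians were 0.42 and −0.20, and 3 genes were called higher and 4 lower. Of all genes called, 75.1% were higher at 5 pg with TMM, 36.0% with total counts and 44.3% with DESeq2. Within libraries numbered 1 to 4 none of all 3305 genes tested passed, 4 pathway genes having an unadjusted p under 0.05, and within those numbered above 4 there were 2 pathway genes, with 37 higher and 596 lower of 3390 genes tested. GLK1, PFK2 and PYK2 were called higher both with TMM and with total counts over all libraries of the 2 amounts. PFK2 went from 171 ± 97.6 to 2606 ± 3478 CPM (log2 fold change 5.02 ± 0.96, adjusted p = 0.00227 with edgeR). GLK1 and PYK2 had means of 0.311 and 1.19 CPM at 10 ng, where a fitted fold change depends on few counts. At those levels a fall could not have been called, so the direction of both was fixed in advance. The count of 11 includes both. FBA1, GPM1, ENO1 and ENO2 were those called lower with total counts. ENO2 had 55972 ± 10883 CPM at 10 ng and 27345 ± 16827 CPM at 5 pg. TDH2, TDH3 and ADH1, called higher with TMM, turned to −0.27, −0.43 and −0.26 with total counts and no longer passed. The log2 difference of PGK1 was 4.85 with TMM and 3.88 with total counts, which is 3.21 and 3.46 above the median of all genes.

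Between 100 pg and 1 ng none of the 20 genes passed in the edgeR test, 4 of them having an unadjusted p under 0.05, where 6.87% of 4670 genes were called (3.45% higher and 3.43% lower at 100 pg). DESeq2 called 3. Of all genes called, 50.2% were higher at 100 pg with TMM and 16.8% with total counts. Within libraries numbered 1 to 4 the test called 9 pathway genes, with 555 higher and 413 lower of 3431 genes tested, and within those numbered above 4 none of all 4946 genes passed, 13 pathway genes having an unadjusted p under 0.05. The fitted log2 difference of PGK1 was 0.97, at the percentile 76.1 of all genes.

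**Figure D3:**
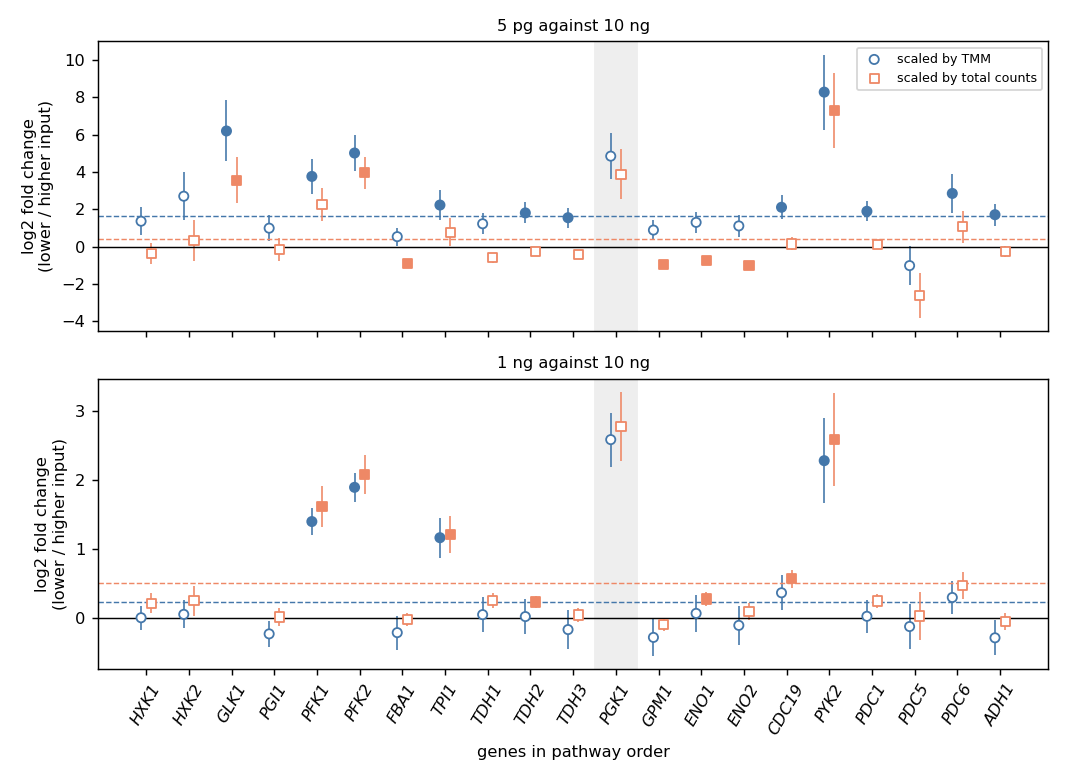
Log2 fold change (± SE) of the pathway genes for 5 pg against 10 ng and 1 ng against 10 ng, with TMM scaling (circles) and total-count scaling (squares). Filled symbols passed an adjusted p of 0.05, PGK1 (shaded) is drawn open because it was not tested, and dashed lines mark the median over all genes, which moved from 1.64 to 0.42 for 5 pg and from 0.23 to 0.51 for 1 ng.

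GCR1, the regulator whose product binds CTTCC, had 0 counts in 32 of 54 grouped libraries and in all 9 at 10 ng. It had 3.70 ± 5.00 CPM at 5 pg (SD, n = 10) and 304 to 677 CPM in the 5 libraries without a stated input, which lay above every grouped library. Against a group at 0 counts only a rise could have been called, so no test of it is given. Of the 6 regulators, 3 had enough counts to be tested from 10 ng to 1 ng. TYE7 and GCR2 were called higher, where 20.8% of all genes were, and RAP1 could only have been called higher. None of the 6 was called between 100 pg and 1 ng. RAP1 had 0.908 ± 0.940 CPM at 10 ng and 16.2 ± 21.4 CPM at 1 ng. Its counts at 10 ng were too few for a fall to be called, so its direction was fixed in advance and its p-value is not given. TYE7, a glycolytic activator, rose from 16.3 ± 8.0 to 52.7 ± 14.2 CPM (adjusted p = 0.000806 with edgeR). GCR2, which acts with Gcr1, rose from 7.88 ± 3.91 to 25.5 ± 24.3 CPM (adjusted p = 0.028 with edgeR). TYE7 was also called higher at 5 pg than at 10 ng (adjusted p = 0.0418), where 23% of all genes were, but the call was lost in 8 of 9 alternatives, with an adjusted p of 0.193 for total counts.

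Of the genes beside PGK1 on chromosome III, only ADP1 had enough counts for the tests. It rose from 63.8 ± 63.3 CPM at 10 ng to 143 ± 93.2 CPM at 1 ng (adjusted p = 0.0243 with edgeR), and had 420 to 1163 CPM without a stated input. POL4, on the other side, had 0 counts in 51 of 54 grouped libraries and at most 41.8 CPM in the 5 others. CTO1, the next gene along, had 36.4 to 105 CPM in those 5 and lay above all grouped libraries. Among the genes of the glycerol branch and of gluconeogenesis, GPP2, a glycerol phosphatase, fell from 289 ± 34.9 CPM at 10 ng to 223 ± 54.8 CPM at 1 ng (adjusted p = 0.0217), a call lost with total counts (adjusted p = 0.122 with edgeR). GPD2, a glycerol-3-phosphate dehydrogenase, was called higher at 5 pg than at 10 ng (adjusted p = 0.0214), but its median was lower at 5 pg, 22.8 against 81.3 CPM, and the call was lost with DESeq2 (adjusted p = 0.278) and with total counts (adjusted p = 0.15). No other gene of that list was called in the 3 comparisons. Of the alpha-cell markers, STE3 was called higher at 5 pg than at 10 ng (adjusted p = 0.048) with medians of 243 and 217 CPM, MF(ALPHA)1 had a log2 fold change of −0.38 there and did not pass, and MF(ALPHA)2 fell from 10 ng to 1 ng (adjusted p = 0.0238).

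The spread of PGK1 within an amount was large beside that of its pathway. Its coefficient of variation (SD over mean) was 118% at 5 pg, 111% at 10 pg, 77.7% at 20 pg, 66.4% at 100 pg and 54.3% at 1 ng. The median over the other 20 genes fell from 66.2% at 5 pg to 17.3% at 1 ng. The pathway genes are mostly far more abundant, and genes within 2-fold of the level of PGK1 had medians of 216%, 129%, 90.5%, 82.5% and 55.3% at the same amounts, above that of PGK1 each time. At 10 ng the order turned, with 125% for PGK1 and 55.9% for the genes of like level. Without replicate 5 it was 42.7%.

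The likeness of other genes to PGK1 was measured as Pearson's r of log2(CPM + 1), a description over libraries that share their RNA source and differ in depth. Over the 54 grouped libraries the most alike of 4621 genes was PFK2 (r = 0.78, Spearman's rho = 0.70), followed by TPI1 (0.65), VPS13 (0.63), a lipid transfer protein, SSC1 (0.62), the mitochondrial Hsp70, and HAC1 (0.60), the factor of the unfolded protein response. The median gene had r = 0.05, and 24 genes exceeded 0.5. After the mean of each amount was subtracted, PFK2 kept r = 0.68 and TPI1 0.63. PFK2 correlated positively with PGK1 in 6 of 6 amounts (r from 0.03 to 0.87) and TPI1 in 5 of 6.

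The abundant pathway genes ran against PGK1. Over the 54 libraries r was −0.46 for ENO2, −0.38 for GPM1, −0.37 for ENO1 and −0.34 for TDH3, and within amounts it was negative in 6 of 6 for TDH1, TDH2 and TDH3. These genes fill a large part of each gene total, with a mean of 104344 CPM for TDH3 alone at 100 pg. In CPM a larger share for them leaves a smaller share for all other genes. The part of this in the negative r was not tested. The least alike genes were HUB1, TSC3, RPL41A, VMA10 and ATP18 (r from −0.68 to −0.60). Their levels were near the floor, with medians of 0 to 10.7 CPM over the grouped libraries. Their coding sequences are short, and the 50 least alike genes had a median coding length of 372 bases, the 50 most alike 2381 bases and all genes compared 1299 bases. The part of length and of low level in these correlations was not tested.

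When the 5 libraries without a stated input were added, the order changed to HAC1 (r = 0.80), TFS1 (0.78), TPI1 (0.76), MET3 (0.76) and PTM1 (0.75), while ENO2 was the least alike at −0.71. These values rest on the gap between the 5 libraries and the 54, since the 5 had a median of 212 CPM for HAC1 and 4019 CPM for MET3 against 0.937 and 10.8 CPM. PFK2 dropped to 0.62.

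**Figure D4:**
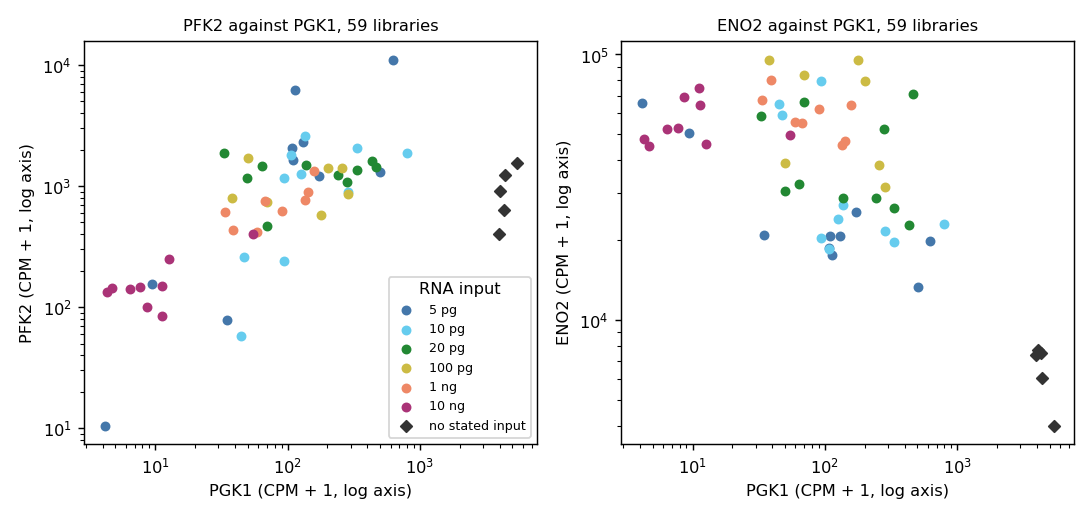
PFK2 (left) and ENO2 (right) against PGK1 in 59 libraries (CPM + 1, log axes), coloured by RNA input. PFK2 rises with PGK1 over the 54 grouped libraries (r = 0.78) and the 5 libraries with no stated input lie off that trend, while ENO2 falls with PGK1 over all 59 (r = −0.71).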

How the data were processed

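The authors aligned untrimmed reads to the R64 genome with STAR 2.5.2 and deposited raw counts of uniquely mapped reads per gene, made with HTSeq per the submitters' processing notes, which also name RSEM 1.2.31. The oligo-dT primed, PCR-amplified libraries carry no molecular identifiers and the kit does not mark strand. The 92 spike-ins and 5 summary lines that name no gene (2.84% to 12.1% of all counts of a grouped library and 9.24% to 13.6% of the other 5) stayed out of gene totals. Of the 6420 genes, 6019 matched RefSeq by locus tag.

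CPM is a count per 1000000 gene counts. A gene entered a test where 20% or more of the libraries in it had 5 counts or more, and tests were run with edgeR 4.0.16 (TMM, quasi-likelihood) at an adjusted p of 0.05, and DESeq2 1.42.0 was an alternative. The SE of a log2 fold change is its size over the root of the F statistic. The edgeR step was also run on simulated counts with equal numbers of rises and falls. That run cannot show which scaling holds where the median of all genes is shifted. Intervals are exact binomial (Clopper-Pearson) at 95% and cover counting error only. No label ties the libraries of an amount to separate cultures, so the p-values rest on spread that may be technical. No 2 libraries held identical counts (0 pairs).

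PGK1, the gene lists and the alternatives were chosen with earlier results of these data known. Named genes were PGK1, the members of the lists (glycolysis and ethanol formation, regulators, neighbours, glycerol branch and gluconeogenesis), the 5 genes most like PGK1 over 54 and over 59 libraries, the 5 next above and below it by ratio of medians, and the 5 most abundant per coding length at 10 ng. The least alike genes, MET10 and the marker genes named singly were chosen after their values were seen. Software was R 4.3.3 and Python 3.11.15 with matplotlib 3.10.9, scipy 1.17.1, pandas 2.3.3 and numpy 2.4.6. The labels' input amounts formed the groups, and the 5 libraries without one entered no test.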

Additional observations from a re-analysis of the deposited data

Results flagged for a closer look

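The PGK1 level of 10 ng replicate 5, 53.3 CPM, was flagged with Dixon's test as far from the other 8 libraries of its amount. So was its level per 1000000 spike-in counts, 64.3, which comes from the same library. In 10 pg replicate 1 PGK1 had 795 CPM, far above the other 9 libraries of that amount. These were 3 of 12 groups looked at. PGK1 was picked for these levels and they are skewed within an amount, so the flags are a description and carry no error rate.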

How the results depend on the processing

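The limits are these. PGK1 rests on 2 to 13 counts in 8 of 9 libraries at 10 ng, so ratios to 10 ng are imprecise, and relative levels move with the abundant pathway genes. Of the alternatives, 43 changed a count of pathway genes by less than 1.5 times or a PGK1 ratio by less than 1 SD and 15 changed it by more, and the cause was not tested. The 3 PGK1 ratios between amounts were never among the 15. For 5 pg against 10 ng the count of pathway genes called, 11, became 7 with total counts (chosen after seeing the data), 4 with no filter on low counts, 0 with libraries numbered 1 to 4 only and 2 with those numbered above 4 only. For 100 pg against 1 ng the count of 0 became 3 with DESeq2, 1 with its size factors in edgeR, 2 with total counts, 1 with no filter, 1 with the number set as a term and 9 with libraries numbered 1 to 4 only. For 1 ng against 10 ng the count of 4 became 7 with total counts and 1 with libraries numbered above 4 only. Over all genes, calls higher and lower at 5 pg went from 804 and 266 to 182 and 323 with total counts, 281 and 287 with the number set as a term, 0 and 0 with libraries numbered 1 to 4 and 37 and 596 with those numbered above 4. For 100 pg they went from 161 and 160 to 348 and 225 with DESeq2, 19 and 94 with total counts, 555 and 413 with libraries numbered 1 to 4 and 0 and 0 with those numbered above 4. For 1 ng they went from 816 and 625 to 451 and 420 with libraries numbered 1 to 4 and 57 and 26 with those numbered above 4. TDH2, TDH3 and ADH1 turned to −0.27, −0.43 and −0.26 with total counts. The PGK1 log2 ratio of the libraries without a stated input, 5.54, ranged from 5.15 to 5.97 over 5 other scalings or libraries and was 17.9 per spike-in count, where H6P15, with 552 spike-in counts, was left out and H6P11, H6P14 and H6P16 had 5896 or fewer. The sum of PGK1 with the dubious frame YCR013C could not be run, since that frame is not among the genes counted.

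Same-numbered libraries did not deviate together in every pair (r from −0.11 to 0.04 over 9 pairs of 5 pg and 10 ng, 0.03 to 0.29 over 7 pairs and 0.00 to 0.55 over 8 pairs of the other comparisons), so the numbers were not read as a pairing. The r was over 0.1 in 0 of the 9, 6 of the 7 and 6 of the 8 pairs. PGK1 in replicate 1 lay above the group median at every amount. In replicates 3 and 4 it lay below the median at every amount but 10 ng. How much of the spread within an amount is shared by number was not tested. With the replicate block the counts of pathway genes were 1 of 19 tested for 5 pg against 10 ng, 1 for 100 pg against 1 ng and 4 for 1 ng against 10 ng, and GPD2 at 5 pg against 10 ng turned to −1.70. The calls over all genes at 5 pg became 19 higher and 543 lower.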
